A study of Mus musculus with 6 samples.

Results

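The genes described are 9 mouse genes of iron uptake, storage and sensing, namely Fth1, Ftl1, Tfrc, Steap3, Slc11a2, Slc40a1, Aco1, Ireb2 and Ncoa4. They were taken by name from a table of 54532 genes, and each name matched 1 row. RNA had been sequenced from 6 libraries labelled MIN6, a mouse insulinoma line of pancreatic beta cells, of which 3 carry the label control (titled shc) and 3 the label PP2Ac knockdown (titled sh2). PP2Ac is the catalytic part of the phosphatase PP2A, which removes phosphate from serine and threonine residues. The labels give no drug, lipid, time point or clone for either group, nor the means of the knockdown. They do not say whether replicates were separate cultures, so the p-values below measure only the spread between these samples, which may be technical.

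Cells take up iron mainly as transferrin bound to the transferrin receptor, release and reduce it in endosomes, pass it to the cytosol through a divalent metal transporter, store the surplus in ferritin shells and export it through ferroportin. Iron regulatory proteins 1 and 2 sense cytosolic iron. When iron is scarce they bind short hairpins called iron-responsive elements, which blocks translation of ferritin and ferroportin mRNA and stabilises transferrin receptor mRNA. Beta cells depend on this control because iron feeds both mitochondrial enzymes and harmful oxidants.

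The hairpins are shown because they are what 4 of the 9 transcripts share beyond their names. Annotated untranslated regions (GENCODE M21, GRCm38, mRNA strand only) were searched for an unpaired C, 5 paired bases, the loop CAGTGN, 5 paired bases and a lower stem with at least 4 of 6 pairs, G-T pairs allowed. Each match below is 29 bases long, written 5′ to 3′ in DNA letters, with the bulged C and the loop in capitals.

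Fth1 5′ element: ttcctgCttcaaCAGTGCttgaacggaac

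Ftl1 5′ element: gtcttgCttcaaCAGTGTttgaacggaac

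Slc40a1 5′ element: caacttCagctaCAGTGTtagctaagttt

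Tfrc 3′ element 1: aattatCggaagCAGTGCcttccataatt

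Tfrc 3′ element 2: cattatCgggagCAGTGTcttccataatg

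Tfrc 3′ element 3: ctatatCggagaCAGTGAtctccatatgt

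Tfrc 3′ element 4: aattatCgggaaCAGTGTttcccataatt

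The Fth1 element lies at chr19:9982732-9982760 on the plus strand and the Ftl1 element at chr7:45459779-45459807 on the minus strand, both in the 5′ untranslated part of exon 1. The 2 ferritin elements differ at 3 of 29 bases. The Slc40a1 element lies at chr1:45925465-45925493 on the minus strand, also in the 5′ untranslated part of exon 1. The 4 Tfrc elements lie on the plus strand in the 3′ untranslated part of exon 19, at chr16:32631219-32631247, chr16:32631598-32631626, chr16:32631663-32631691 and chr16:32631710-32631738. The pattern was found in the 5′ region of 6 of 20899 genes (0.0287%) and in the 3′ region of 17 of 21685 genes (0.0784%). No match was found in Slc11a2 or the other 4 members, which says only that these letters are not in their annotated untranslated regions. A match is a description of sequence and not a measured binding site.

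Values are FPKM, reads scaled for gene length and library depth, so levels of different genes can be set side by side. The libraries held 14614737 to 16030939 reads, recovered from the table. Ppp2ca, which encodes the alpha form of PP2Ac, stood at 37.6 ± 4.33 FPKM in the controls and was lowered to 10.8 ± 0.617 (SD, n = 3). Of 10 beta cell markers, Ins1, Ins2, Nkx6-1 and Slc2a2 were at 0 in all 6 libraries, so the cells are named by their label only. Of the 2 markers high enough to test, Pdx1 went from 1.68 ± 0.499 to 3.96 ± 0.309 FPKM and Mafa from 1.78 ± 0.435 to 4.86 ± 0.854 FPKM (SD, n = 3), both higher in knockdown (limma adjusted p = 0.000802 and 0.000344). The 10 markers' summed level was 3.01 to 4.63 FPKM in control and 8.19 to 9.85 in knockdown. A difference was called at a limma adjusted p under 0.05, on log2(FPKM + 1), among genes with a mean of at least 1 FPKM. By this rule 7267 of 11652 genes, or 62.4%, differed between the groups, with 33.3% higher and 29.1% lower in knockdown. Mitochondrially encoded genes, rRNA and the short RNA Gm23935 were also removed, with the other genes of each library rescaled to its former FPKM sum. In that fit 2835 genes were higher and 4454 lower, against 3879 and 3388. The fit on protein-coding genes only was rescaled in the same way.

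Of the 9 iron genes, 7 passed the filter and were tested. Fth1, Tfrc, Slc11a2 and Aco1 were higher in knockdown, Ireb2 was lower, and Ftl1 and Ncoa4 did not pass the threshold. These are 5 called of 7 tested, against 62.4% of all genes, so the count itself is near the background. The 2 groups did not overlap for the same 5 genes, against 68.1% of all genes tested (36.4% with knockdown higher and 31.7% with knockdown lower). The median log2 difference of the 7 was 0.31 and that of all tested genes 0.03. Steap3 and Slc40a1 were too low to test. The exact permutation test of 1 gene cannot go below p = 0.1 with 3 against 3 libraries, a value reached by Fth1, Tfrc, Slc11a2, Aco1, Ireb2 and Steap3 (two-sided).

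**Figure D1:**
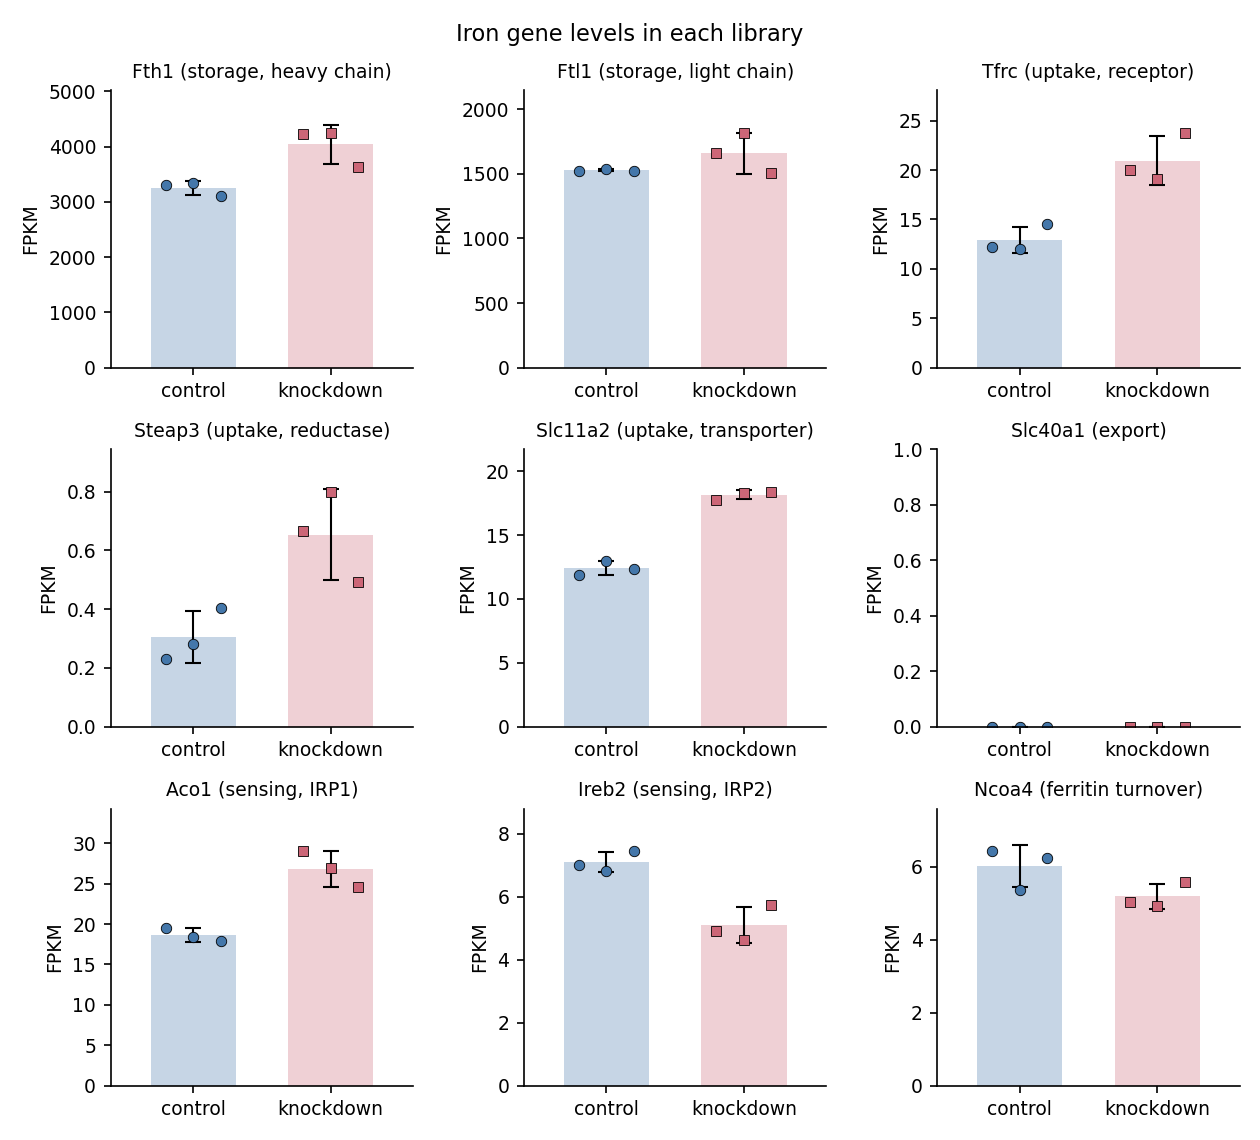
FPKM (y axis, from 0) of each of the 9 genes in the 3 control (circles) and 3 knockdown libraries (squares); bars are means and error bars the SD. The groups separate for Tfrc, Slc11a2, Aco1, Fth1, Steap3 and Ireb2, overlap for Ftl1 and Ncoa4, and Slc40a1 is at 0 in all 6 libraries.

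Ferritin mRNA was by far the most abundant of the set. Fth1 (ENSMUSG00000024661, chr19:9982703-9985092, plus strand) encodes the heavy chain, which oxidises iron as it enters the shell. It had 3301, 3349 and 3105 FPKM in control and 4236, 4249.5 and 3638 FPKM in knockdown. Every knockdown library was above every control library, and knockdown library 3 was the nearest to control. The mean rose 1.24-fold, from 3252 ± 129 to 4041 ± 349 FPKM (SD, n = 3), with a log2 difference of 0.31 (SE 0.103, limma adjusted p = 0.0283). Fth1 alone took 0.285% ± 0.00965 of all reads in control and 0.350% ± 0.0240 in knockdown, and by mean FPKM it ranked 7 of all genes in control and 4 in knockdown.

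The Fth1 call was the least firm of the 5. Its difference was positive in all 20 alternative fits, from 0.15 to 0.38, but its adjusted p was above the threshold in 9 of them. Those were the fits without control library 1, 2 or 3 or knockdown library 1 or 2 (limma adjusted p = 0.0565 to 0.0963), upper-quartile scaling (0.0686), protein-coding genes only (0.162), the removal of mitochondrial genes, rRNA and Gm23935 (0.294) and no filter on low values (0.578). The removal shifted the median of all genes by -0.14 on the log2 scale. Relative to that median, Fth1 was higher by 0.28 as deposited and by 0.27 after the removal.

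Ftl1 (ENSMUSG00000050708, chr7:45457944-45459884, minus strand) encodes the light chain, which aids the building of the iron core. It had 1521, 1538 and 1525 FPKM in control and 1658, 1817 and 1503 FPKM in knockdown. The 3 control libraries lay close together, while knockdown library 3 was below all of them and the other two above. The means were 1528 ± 8.99 and 1659 ± 157 FPKM (SD, n = 3), a log2 difference of 0.11 with a 95% interval of -0.10 to 0.33 (limma adjusted p = 0.320). A difference of the size seen for Fth1 lies within that interval. After the removal of mitochondrial genes, rRNA and Gm23935, which rescaled the other genes, the sign turned, to -0.05. That value is 0.07 above the median of all genes.

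Set against Ftl1 mRNA within a library, Fth1 mRNA stood higher in knockdown. Fth1 per Ftl1 in FPKM was 2.17, 2.18 and 2.04 in control and 2.56, 2.34 and 2.42 in knockdown. The ranges did not overlap, with means of 2.13 ± 0.0791 and 2.44 ± 0.109 (SD, n = 3). This ratio does not depend on how libraries are scaled, and it was not tested. Of single tested genes, 68.1% also separated the groups, and the share among ratios of 2 genes was not computed. Summed ferritin mRNA was 4780 ± 134 FPKM in control and 5700.2 ± 492 in knockdown.

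Ferritin genes have near-identical pseudogenes, so reads may have been split between copies. By name, 2 related copies were found for the heavy chain (Fth-ps2 and Fth-ps3) and 3 for the light chain (Ftl1-ps1, Ftl1-ps2 and Ftl2-ps). They held at most 0.0153% of the summed heavy chain reads and 1.605% to 2.51% of the light chain reads. Adding them left the log2 differences at 0.31 for Fth1 and 0.12 for Ftl1. Copies under other names were not sought, and how reads matching several copies were counted is not given. The sums therefore cannot show whether such reads affect Fth1 or Ftl1. Ftl1 is also overlapped on the opposite strand by Gm10252, at 3.87 FPKM in control and 2.89 in knockdown. Whether counting used strand is not given in the sources used here, and their reads cannot be told apart.

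Both uptake members that could be tested, Tfrc and Slc11a2, were higher in knockdown. Tfrc (ENSMUSG00000022797, chr16:32608920-32632794, plus strand) encodes transferrin receptor 1, the entry route for transferrin iron, and its transcript carries the 4 elements shown above. It had 12.2, 12.1 and 14.5 FPKM in control and 19.96, 19.1 and 23.8 FPKM in knockdown. All knockdown libraries were above all controls, and library 3 was the highest in both groups, although replicate numbers are not known to pair the samples. Tfrc rose 1.62-fold, from 12.9 ± 1.36 to 20.9 ± 2.49 FPKM (SD, n = 3), the largest log2 difference of the 7 tested members at 0.65 (SE 0.104, limma adjusted p = 0.000796). It passed in all 20 alternative fits, with differences of 0.51 to 0.73.

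Slc11a2 (ENSMUSG00000023030, chr15:100387898-100425072, minus strand) encodes DMT1, the transporter that moves ferrous iron out of the endosome into the cytosol. It had 11.9, 13.0 and 12.3 FPKM in control and 17.8, 18.3 and 18.4 FPKM in knockdown. The spread within each group was small and the groups were well apart. Slc11a2 rose 1.46-fold, from 12.4 ± 0.550 to 18.2 ± 0.339 FPKM (SD, n = 3), a log2 difference of 0.51 (SE 0.0646, limma adjusted p = 0.000235), and it passed in all 20 alternative fits. The gene makes transcripts with and without an iron-responsive element, which a value per gene cannot separate. Slc11a2 is overlapped on the opposite strand over 2926 bases by Gm5475, at 0.0440 FPKM in control and 0.0453 in knockdown. As for Ftl1, it is not known whether counting used strand.

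Steap3 (ENSMUSG00000026389, chr1:120190757-120272705, minus strand) encodes the ferric reductase of the transferrin endosome in red cell precursors. It had only 0.230, 0.282 and 0.405 FPKM in control and 0.668, 0.80 and 0.492 FPKM in knockdown, from 21, 25 and 38 reads and 59, 70 and 42 reads. The groups did not overlap, but the mean of both was below the filter. Without a filter its log2 difference of 0.34 had a limma adjusted p of 0.0501. The mean in knockdown was 2.14-fold that in control, at 0.653 against 0.306 FPKM. At such low levels the 1 added before the log makes the log2 difference smaller than that ratio. Other genes of the family were read beside it. Steap4 was also below the filter, at 0.421 ± 0.176 and 0.327 ± 0.121 FPKM. Steap1 fell from 214 ± 21.6 to 72.5 ± 5.22 FPKM (SD, n = 3, limma adjusted p = 8.23e-06), and Steap2 was at 28.6 ± 3.41 and 24.2 ± 0.866 FPKM (limma adjusted p = 0.0605).

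Slc40a1 (ENSMUSG00000025993, chr1:45908068-45926523, minus strand) encodes ferroportin, the known cellular iron exporter. It had 0 reads in every library of both groups. At this depth 3 reads would have given at most 0.0215 FPKM in control and 0.0223 FPKM in knockdown, for counting error only. Its level was therefore not detectable in either group, and no difference could be measured.

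**Figure D2:**
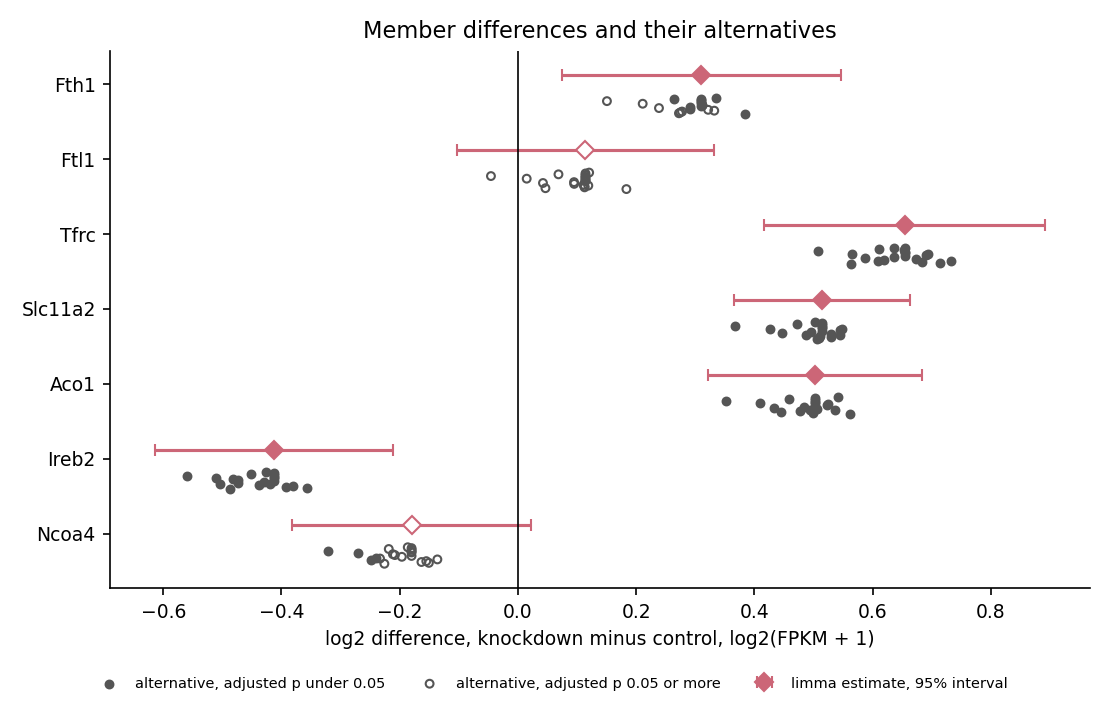
Log2 difference, knockdown minus control (x axis), for the 7 tested genes: diamonds with bars are the limma estimate on log2(FPKM + 1) with its 95% interval, filled where called, and small circles are the 20 alternative fits, some on another pseudocount or on read rates, filled where adjusted p was under 0.05. Tfrc, Slc11a2, Aco1 and Ireb2 stay on 1 side with filled circles, whereas circles are open and filled for Fth1 and Ncoa4.

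The 2 sensor transcripts moved in opposite directions. Aco1 (ENSMUSG00000028405, chr4:40143081-40198338, plus strand) encodes iron regulatory protein 1, which is cytosolic aconitase when it holds an iron-sulphur cluster and an RNA binding protein when it does not. It had 19.5, 18.4 and 17.95 FPKM in control and 29.1, 26.9 and 24.6 FPKM in knockdown. Aco1 rose 1.44-fold, from 18.6 ± 0.825 to 26.9 ± 2.25 FPKM (SD, n = 3), a log2 difference of 0.50 (SE 0.0788, limma adjusted p = 0.000757). The groups were apart, with knockdown library 3 the lowest of its group.

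Ireb2 (ENSMUSG00000032293, chr9:54863789-54912530, plus strand) encodes iron regulatory protein 2, which holds no cluster and is degraded when iron is ample. It had 7.03, 6.83 and 7.47 FPKM in control and 4.93, 4.64 and 5.76 FPKM in knockdown. Every knockdown library was below every control library. Ireb2 fell to 0.718 of control, from 7.11 ± 0.327 to 5.11 ± 0.581 FPKM (SD, n = 3), a log2 difference of -0.41 (SE 0.0879, limma adjusted p = 0.00371). Both sensor genes passed in all 20 alternative fits, Aco1 at 0.35 to 0.56 and Ireb2 at -0.56 to -0.36.

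Aco1 per Ireb2 in FPKM was 2.78, 2.69 and 2.40 in control and 5.90, 5.80 and 4.27 in knockdown. The balance between the sensor transcripts moved from 2.63 ± 0.197 to 5.33 ± 0.915 (SD, n = 3), with no overlap and no test. Each gene separated the groups in an opposite direction, so the separation of their ratio follows from that. Their summed level was 25.7 ± 0.733 FPKM in control and 31.96 ± 1.86 in knockdown.

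Ncoa4 (ENSMUSG00000056234, chr14:32159865-32179855, plus strand) encodes the receptor that carries ferritin to the autophagosome, where its iron is freed. It had 6.44, 5.37 and 6.25 FPKM in control and 5.04, 4.94 and 5.59 FPKM in knockdown. Control library 2 lay among the knockdown libraries, and the other two controls lay above them. The means were 6.02 ± 0.572 and 5.19 ± 0.351 FPKM (SD, n = 3), a log2 difference of -0.18 with a 95% interval of -0.38 to 0.02 (limma adjusted p = 0.108). The call appeared without control library 2 (-0.25, limma adjusted p = 0.0439), with upper-quartile scaling (-0.24, 0.0434), with protein-coding genes only (-0.27, 0.0172) and after the removal of mitochondrial genes, rRNA and Gm23935 (-0.32, 0.0125).

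**Figure D3:**
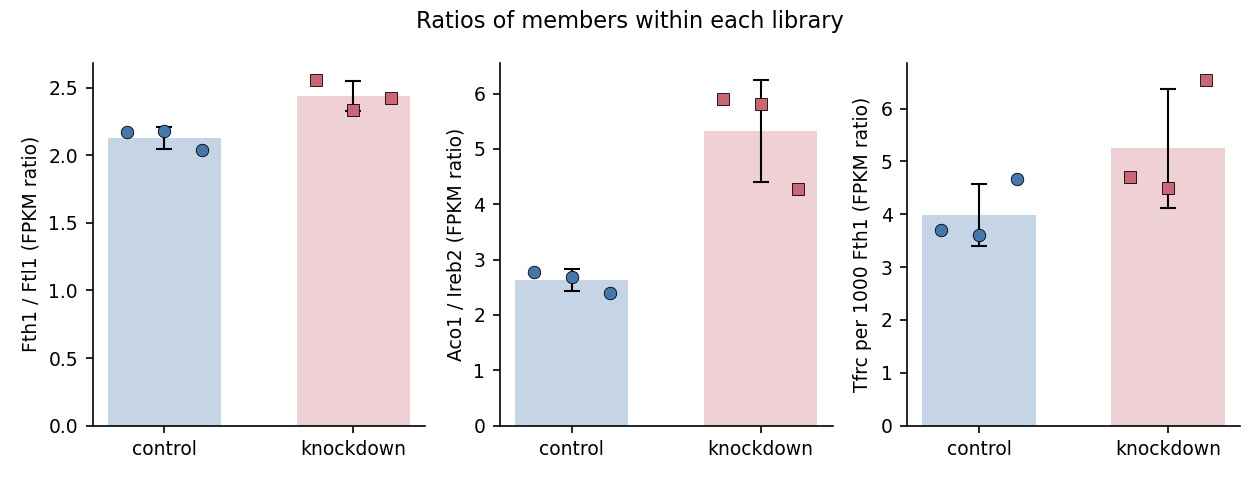
Ratios of FPKM within each library (y axes, from 0) for Fth1 per Ftl1, Aco1 per Ireb2 and Tfrc per 1000 Fth1; circles are control and squares knockdown libraries, bars are means and error bars the SD. The first 2 ratios separate the groups, as 68.1% of single tested genes do, while Tfrc per 1000 Fth1 overlaps.

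In order of mean FPKM, control ran Fth1, Ftl1, Aco1, Tfrc, Slc11a2, Ireb2, Ncoa4, Steap3 and Slc40a1. Tfrc and Slc11a2 overlapped in control and no other neighbours did. In knockdown Tfrc and Slc11a2 no longer overlapped, and Ncoa4 stood just above Ireb2 with overlapping libraries. Tfrc per 1000 Fth1, receptor against store, was 3.70, 3.60 and 4.67 in control and 4.71, 4.49 and 6.54 in knockdown. These ranges overlapped.

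Over the 6 libraries the genes whose log2 levels were most like Tfrc were Man2a1 (Pearson r = 0.999), Pdha1 (r = 0.999) and Lhfp (r = 0.997). Those most like Fth1 were Elp5 (r = 0.995), Smpd1 (r = 0.992) and Wwp2 (r = 0.992). They were picked from 7114 protein-coding genes with a mean of at least 5 FPKM, of which 234 reached an r of 0.95 with Tfrc and 336 with Fth1. The 6 points share the group difference, so these values are descriptions only.

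Genes around the members were read in 8 lists of iron and haem genes. The lists were chosen with earlier results of these data known, so their counts and medians are descriptions only. Of their 98 distinct tested genes, 29 rose, 33 fell and 36 passed in neither direction, with a median log2 difference of 0.03. That is 63.3% called, near the 62.4% of all genes.

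Of 19 other uptake and export genes, 12 were too low to test. Of the 7 tested, 5 were lower and 1 higher, with a median of -0.54, against 29.1% lower and 33.3% higher among all genes. Besides Steap1, Lcn2, which encodes the siderophore carrier lipocalin 2, fell from 77.1 ± 9.85 to 20.7 ± 3.82 FPKM. Slc39a14, which encodes the ZIP14 importer of iron not bound to transferrin, fell from 21.7 ± 0.0859 to 12.2 ± 0.792 FPKM. Mcoln1, a lysosomal cation channel gene, and Cp, which encodes the ferroxidase ceruloplasmin, were the other two that fell. Slc46a1, a folate and haem carrier gene, rose from 1.19 ± 0.179 to 3.55 ± 0.443 FPKM (SD, n = 3; limma adjusted p = 2.32e-05 for Lcn2, 4.23e-05 for Slc39a14 and 0.000121 for Slc46a1).

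Genes that act on the sensors and chaperones were split. Of 10 tested, 3 rose, 3 fell and 4 passed in neither direction, with a median of 0.10. Among all genes 33.3% were higher and 29.1% lower. Fbxl5, which encodes the iron-sensing subunit of the ligase that degrades iron regulatory protein 2, fell from 9.55 ± 0.537 to 6.04 ± 0.374 FPKM (SD, n = 3, limma adjusted p = 0.000277). Its partners went different ways, with Skp1a higher (49.6 ± 2.34 to 66.7 ± 4.70 FPKM) and Cul1 lower (28.3 ± 2.56 to 22.3 ± 1.43 FPKM). Pcbp2, an iron chaperone gene, rose from 107 ± 7.13 to 147 ± 13.9 FPKM. Pcbp1, the main chaperone that loads ferritin, went up from 235 ± 5.86 to 278 ± 16.9 FPKM (SD, n = 3, limma adjusted p = 0.0209). That call was lost in 7 of 20 alternative fits. Among those were the fits without control library 1 (0.0507) or 3 (0.0570) and without knockdown library 2 (0.0724).

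Of 14 ferritin turnover genes, all tested, 8 fell, 2 rose and 4 passed in neither direction, with a median of -0.26, against 29.1% lower and 33.3% higher among all genes. Sqstm1, an autophagy receptor gene, fell from 496 ± 50.1 to 298 ± 19.7 FPKM, Atg7 from 17.03 ± 1.32 to 9.22 ± 0.585 and Map1lc3b from 37.2 ± 2.01 to 24.5 ± 2.17. Tfeb, which encodes a transcription factor for lysosomal genes, rose from 2.79 ± 0.376 to 6.64 ± 0.841 FPKM (SD, n = 3; limma adjusted p = 7.20e-05 to 0.000436 for these 4 genes). Most of these genes serve autophagy in general and not ferritin alone.

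For transferrin receptor trafficking, 8 of 13 tested genes did not pass, 2 were higher and 3 lower, with a median of 0.11. Of all genes, 33.3% were higher and 29.1% lower. Picalm, a clathrin adaptor gene, fell from 12.7 ± 0.771 to 5.33 ± 0.469 FPKM, Cltc, the clathrin heavy chain gene, from 69.6 ± 5.87 to 43.6 ± 2.64 and Vps35, a retromer gene, from 30.1 ± 4.47 to 16.5 ± 0.737. Ap2m1, which encodes the adaptor subunit that binds receptor tails, rose from 63.8 ± 4.53 to 104 ± 7.49 FPKM (SD, n = 3; limma adjusted p = 1.95e-05 to 0.000286 for these 4 genes).

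Of the hepcidin axis, 6 of 12 genes were tested, with 1 higher, 1 lower and 4 not past the threshold. The shares among all genes were 33.3% higher and 29.1% lower. Hamp, which encodes the iron hormone hepcidin, was at 0 in all libraries. Tmprss6, which encodes the protease that restrains hepcidin, rose from 0.483 ± 0.0863 to 3.73 ± 0.548 FPKM (SD, n = 3, limma adjusted p = 2.01e-05). It passed the filter only through its knockdown level, and with no filter its limma adjusted p was 0.000597. Bmpr2 fell from 4.14 ± 0.432 to 3.07 ± 0.355 FPKM (SD, n = 3, limma adjusted p = 0.0201). That call was lost in 5 of 19 alternative fits, among them those without control library 1 (0.0620) or 3 (0.0659) and knockdown library 1 (0.0531) or 2 (0.0686). Hfe was at 3.43 ± 0.289 and 3.81 ± 0.297 FPKM and Neo1 at 30.6 ± 2.33 and 29.01 ± 2.71 FPKM, neither past the threshold.

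The list of mitochondrial iron and iron-sulphur cluster genes also holds genes of cytosolic cluster assembly. Of its 28 tested genes, 9 rose, 6 fell and 13 passed in neither direction, against 33.3% higher and 29.1% lower among all genes. The list median was 0.03. With Gm23935, rRNA and mitochondrially encoded genes taken out, 6 rose and 10 fell, and with protein-coding genes only 8 rose and 10 fell. Slc25a37, which encodes mitoferrin 1, the mitochondrial iron importer best known in red cell precursors, fell from 68.7 ± 2.17 to 17.4 ± 1.61 FPKM (SD, n = 3, limma adjusted p = 2.14e-06). Hspa9, a mitochondrial chaperone gene that serves cluster transfer among other tasks, fell from 659 ± 51.0 to 346 ± 10.4 FPKM. Glrx5, a cluster carrier gene, rose from 15.0 ± 1.41 to 30.3 ± 3.51 FPKM, and Nubp2, of the cytosolic cluster scaffold, from 39.3 ± 1.59 to 63.9 ± 2.77 FPKM (SD, n = 3; limma adjusted p = 4.40e-05 to 0.000108 for these 3 genes).

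Of 18 haem genes tested, 10 rose, 5 fell and 3 passed in neither direction, with a median of 0.38, against 33.3% higher and 29.1% lower among all genes. Without knockdown library 2, 3 of them fell. Blvrb, a biliverdin reductase gene, rose 4.08-fold, from 25.2 ± 2.59 to 103 ± 10.2 FPKM. Slc48a1, a haem transporter gene, rose from 93.5 ± 5.12 to 203 ± 19.8 FPKM, and Abcb10, which encodes a mitochondrial transporter, from 5.58 ± 0.244 to 12.3 ± 0.477 (SD, n = 3; limma adjusted p = 4.17e-06 to 2.78e-05 for these 3 genes). Hmox1, the inducible haem oxygenase that frees iron from haem, fell from 72.5 ± 4.16 to 63.6 ± 1.48 FPKM (limma adjusted p = 0.0447). That call was lost in 7 of 20 alternative fits, among them those without control library 1 (0.113) or 2 (0.144) and without knockdown library 1 (0.106), 2 (0.0698) or 3 (0.101).

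**Figure D4:**
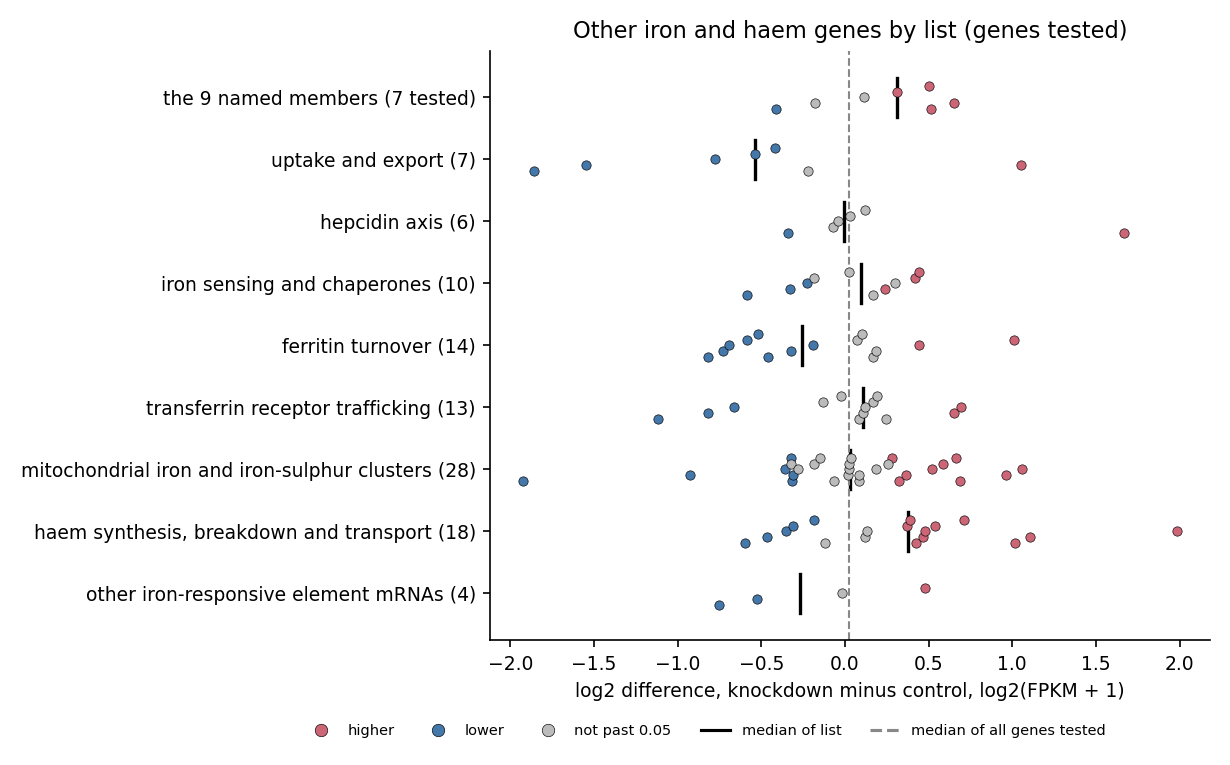
Log2 difference on log2(FPKM + 1), knockdown minus control (x axis), of each tested gene in the 9-gene set and in 8 lists of other iron and haem genes (rows, number tested in brackets); colour shows the limma call, black bars the list medians and the dashed line the median of all genes tested. The haem list has its median at 0.38, the uptake and export list at -0.54 and the ferritin turnover list at -0.26, with all genes at 0.03. The lists were chosen with earlier results of these data known.

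Of 8 other transcripts reported to hold iron-responsive elements, 4 were tested. Of these 1 was higher and 2 lower, against 33.3% higher and 29.1% lower among all genes. Cdc42bpa, a kinase gene, fell from 7.65 ± 0.744 to 4.12 ± 0.337 FPKM and App from 50.5 ± 4.005 to 34.7 ± 1.63 FPKM, while Hao1 rose from 0.788 ± 0.125 to 1.49 ± 0.136 FPKM (SD, n = 3; limma adjusted p = 0.000194, 0.00059 and 0.00913). Hao1 passed the filter only through its knockdown level, and with no filter its limma adjusted p was 0.0224.

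Markers of red cell precursors, macrophages and fibroblasts were also read. Of 10 red cell precursor markers none reached the filter, and their summed level was 0.431 to 0.997 FPKM in control and 0.833 to 1.69 in knockdown. Of 10 macrophage markers, Adgre1, Itgam, Spic and Vsig4 were at 0 in all libraries and Csf1r and Ptprc were near 0, while Cd68 was lower and Cd14 and Lyz2 were higher in knockdown. The macrophage sum was 34.6 to 38.4 FPKM in control and 44.6 to 53.4 in knockdown. Of 10 fibroblast markers, all 6 tested were higher in knockdown, and the sum went from 504 to 577 FPKM up to 1150.4 to 1314 FPKM, most of it Vim. Their part in the iron gene differences was not tested, and in bulk RNA fewer cells of a type and less RNA per cell cannot be told apart.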

How the data were processed

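The authors deposited 1 table of FPKM for 54532 genes. The genome is named GRCm38 and mm10, per the submitters' processing notes. How reads were aligned, counted and assigned to strands is not given in the sources used here. FPKM times gene length was a whole multiple of 1 step for 100% of non-zero values (within 0.01), which gave reads per gene. The median ratio to the geometric mean over genes with reads in all libraries was 1.01 in each library, the same to within rounding, so the deposited values already carried median-of-ratios scaling. Of the gene identifiers, 99.8% were in GENCODE M21 and 98.1% had the same position there.

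Groups were compared with limma 3.58.1 (R 4.3.3), with an intensity trend in eBayes. The input was log2(FPKM + 1), kept where the mean reached 1 FPKM, with Benjamini-Hochberg adjustment over 11652 genes; intervals are 95%. The fit was also run on simulated counts with a fixed dispersion and few changed genes, unlike these data. That run does not measure the error rate of the calls here. Replicates of a group differed beyond sampling noise and none were merged. Alternatives were other pseudocounts, filters, scalings and variance models, voom on recovered reads, a replicate block, ferritin pseudogenes added and leaving out each library; 2 scalings were added after seeing the data. The members and lists were chosen with earlier results of these data known. Named genes are the 9 members, Ppp2ca, up to 4 genes per list with the smallest p, 7 more (Hmox1, Fbxl5, Trf, Hamp, Pcbp1, Slc39a14, Slc25a37) and the 3 genes most like Tfrc and Fth1; some genes that this rule names are not reported here. Tables and plots were made in Python 3.11.15 with pandas 2.3.3, scipy 1.17.1, matplotlib 3.10.9 and numpy 2.4.6.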

Additional observations from a re-analysis of the deposited data

How the results depend on the processing

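Tfrc, Slc11a2, Aco1 and Ireb2 kept their direction and call in all 20 alternative fits. Fth1 kept its direction but was not past the threshold with no filter (0.31), upper-quartile scaling (0.24), protein-coding genes only (0.21) and removal of mitochondrial genes, rRNA and Gm23935 (0.15). Leaving out 1 library gave 0.27 to 0.38 for Fth1, 0.05 to 0.18 for Ftl1 and -0.25 to -0.14 for Ncoa4. After the removal Ftl1 turned to -0.0456. Ncoa4 passed at -0.24, -0.27 and -0.32 under the last 3 of those settings and without control library 2, and the count of lower members then went from 1 to 2. Hfe, which was not called, turned to -0.00658 after the removal. The causes were not tested.

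With the replicate block, members stayed at 4 higher and 1 lower (Fth1 at 0.31, limma adjusted p = 0.0187) and 7363 genes were called. Same-numbered libraries did not all deviate together (correlations of -0.01, 0.16 and 0.05), so the numbers are not taken as pairs. The block raised the higher trafficking genes from 2 to 4. Lower genes of the mitochondrial iron and iron-sulphur cluster list went from 6 to 10 after the removal and with protein-coding genes only. With a mean FPKM of at least 5, the higher counts went from 1 to 0 for uptake and export, hepcidin axis and the other element list, and from 2 to 1 for ferritin turnover. Lower hepcidin axis genes went from 1 to 0 in that fit, with no filter and without control library 1 or 3 or knockdown library 1 or 2. Lower haem genes went from 5 to 3 without knockdown library 2. Depth limits only Steap3 and Slc40a1 among the members.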

Other observations

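Dates in March stand in place of 11 gene symbols in the deposited values. One is March8, matched here by its Ensembl identifier, which encodes a ligase known to tag the transferrin receptor for degradation. It stood at 15.3 ± 0.549 FPKM in control and 17.3 ± 0.568 in knockdown (SD, n = 3), higher in 3 of 3 knockdown libraries than in any control, with a log2 difference of 0.17 (limma adjusted p = 0.0504) that did not pass the threshold. It passed with the replicate block (0.0490), with every gene kept (0.0420) and with array weights (0.0291), and not in the other alternative fits.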
